A study of Mus musculus with 11 samples.

Results

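Oxidative phosphorylation was followed through 98 of the 32285 genes counted in single cells of the mouse brain. Of these, 85 are nuclear genes, taken as all symbols that start with Ndufa, Ndufb, Ndufc, Ndufs, Ndufv, Uqcr, Cox4 to Cox8 or Atp5, together with Sdha to Sdhd, leaving out the Ndufaf assembly factors and pseudogenes. The other 13 are the protein-coding genes of the mitochondrial genome, with symbols that start with mt-Nd, mt-Co, mt-Atp or mt-Cytb. The nuclear members comprised 36 genes of complex I, 4 of complex II, 8 of complex III, 19 of complex IV and 17 of complex V, and Ndufa4l2, a relative of the complex IV subunit Ndufa4, was kept apart. The mitochondrial members comprised 7 genes of complex I, 1 of complex III, 3 of complex IV and 2 of complex V.

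Complexes I to IV of the inner mitochondrial membrane pass electrons from NADH and succinate to oxygen, and complexes I, III and IV pump protons as they do so. Complex V, the ATP synthase, uses the proton gradient to make ATP. The genes for these machines lie in both genomes of the cell, and all subunits of complex II are nuclear. Mitochondrial genes are transcribed as long transcripts that are cut into single mRNAs inside the organelle, whereas nuclear members are transcribed singly and their proteins imported. The brain depends heavily on this pathway, and an arterial occlusion removes the oxygen and fuel that it needs.

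The study crossed a conventional knockout of Lrg1, which encodes a secreted glycoprotein, with middle cerebral artery occlusion and reperfusion (MCAO/R) or sham surgery. The sham + WT group had 3 mice, the sham + Lrg1-/- group 3, the MCAO/R + WT group 2 and the MCAO/R + Lrg1-/- group 3, with 1 library of right brain per mouse. WT mice were male C57BL/6 mice of 8 to 10 weeks, and the Lrg1-/- mice were 3 months old, of a line that lacks Lrg1 in every cell and had been backcrossed to C57BL/6N, a background that the methods also name otherwise. All suspensions went through lysis of red blood cells, and libraries were made with the Chromium 3′ kit. The duration of occlusion and reperfusion is not in the labels. WT and Lrg1-/- mice differed in source and age and may have differed in substrain, which is not named for WT mice. The genotype cannot be told apart from these or from differences in how the libraries were prepared.

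In all, 124534 cells were kept, 3059 to 32136 per library, and the total per library ranged from 37159497 to 171813031 unique molecular identifiers (UMIs, each standing for 1 captured transcript). Lrg1 had 179 to 650 UMIs in the sham + WT libraries, 15485 to 16784 in the MCAO/R + WT libraries, and 0 in each Lrg1-/- library except MCAO/R + Lrg1-/- replicate 5, which had 1. Cells fell into 13 types named by markers, and 25492 cells stayed unnamed, 14.1% to 50.7% of each MCAO/R + Lrg1-/- library against 1.18% to 4.91% of each MCAO/R + WT library. Among these, cluster 8 passed 4 of 8 microglial markers and also 3 red blood cell markers. It held 131 cells in sham + WT, 1836 in sham + Lrg1-/-, 306 in MCAO/R + WT and 4875 in MCAO/R + Lrg1-/-. The microglial class, with 2171 cells in sham + Lrg1-/- and 8093 in MCAO/R + Lrg1-/-, and every value given for it leave these cells out. Choroid plexus epithelial cells, which secrete cerebrospinal fluid, made up 16.8% to 37.3% of cells in sham + Lrg1-/-, 4.3% to 22.8% in MCAO/R + Lrg1-/-, 1.66% to 2.03% in sham + WT and 0.239% to 1.18% in MCAO/R + WT. Between any pair of libraries at most 1.06% of the smaller one's barcodes recurred. The macrophage class was cluster 22, with Mrc1, Lyve1 and Cd163 among the 10 genes highest relative to other clusters. Unnamed cluster 19, which had Arg1, Chil3 and Ccr2 among its 10, is not part of that class and was not tested. The neuron class was cluster 17, with Sox11 and Dcx among its 10. Clusters took different shares of a class in different groups. Of microglial cells, cluster 2 held 77.0% in sham + WT, 52.4% in sham + Lrg1-/-, 0.889% in MCAO/R + WT and 0.185% in MCAO/R + Lrg1-/-, whereas cluster 6 held 0.533%, 1.89%, 34.5% and 59.7% in the same order. Cluster 12 held 5.52%, 15.2%, 36.1% and 2.77%, so that it also differed by genotype after MCAO/R.

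The share of a library's UMIs that came from the nuclear members was higher in every Lrg1-/- library than in every WT library, over all kept cells. It was 1.09%, 1.04% and 1.08% in sham + WT replicates 1, 2 and 3, and 3.34%, 2.50% and 2.48% in sham + Lrg1-/- replicates 1, 2 and 5. After MCAO/R it was 1.01% and 1.05% in WT replicates 1 and 2, and 2.97%, 1.67% and 1.55% in Lrg1-/- replicates 1, 2 and 5. The group means were 1.07% ± 0.0256 (SD, n = 3), 2.77% ± 0.493 (SD, n = 3), 1.03% ± 0.0273 (SD, n = 2) and 2.06% ± 0.786 (SD, n = 3). The WT libraries lay close together whatever the surgery, and the Lrg1-/- libraries were spread more widely.

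Mitochondrial members took a larger share than the nuclear ones in each of the 11 libraries, and that share differed less between the groups. It was 2.80%, 2.95% and 2.85% in sham + WT, 4.0%, 3.53% and 3.32% in sham + Lrg1-/-, 2.55% and 3.24% in MCAO/R + WT, and 3.34%, 3.03% and 3.44% in MCAO/R + Lrg1-/-. The sham groups did not overlap, and the MCAO/R groups did. The number of mitochondrial UMIs per nuclear UMI was accordingly lower in every Lrg1-/- library, at 1.2, 1.41 and 1.34 in sham and 1.13, 1.82 and 2.22 after MCAO/R, than in every WT library, at 2.58, 2.84 and 2.63 in sham and 2.53 and 3.10 after MCAO/R. As scores over chosen genes, these shares carry no test, and a share also rises where other transcripts fall.

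**Figure D1:**
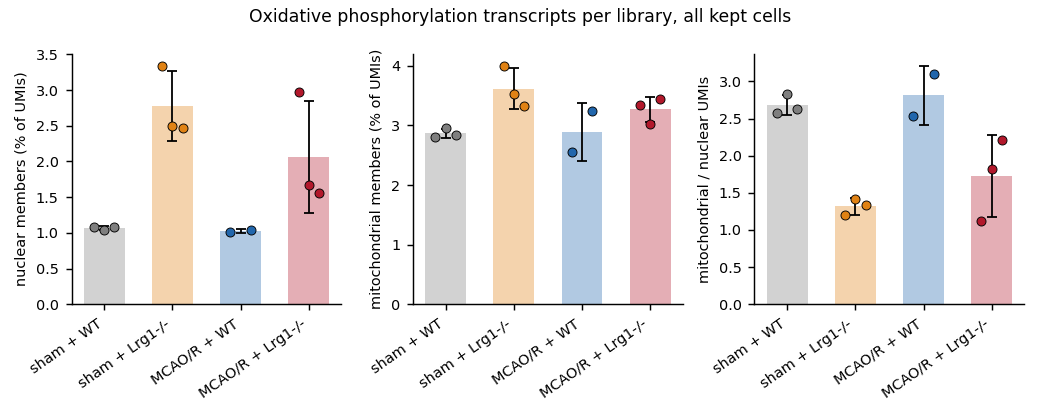
Share of UMIs from nuclear members, from mitochondrial members and their ratio over all kept cells, by group. Bars are group means starting at 0, error bars the SD and points single libraries; nuclear shares of the 6 Lrg1-/- libraries, 1.55% to 3.34%, all lie above those of the 5 WT libraries, 1.01% to 1.09%.

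The make-up of the libraries differed along with these shares. Choroid plexus cells had the highest nuclear share of any named type in each library, at 2.96% to 6.12%, and they were more frequent in Lrg1-/- libraries. When the 9 types present in all 11 libraries were weighted equally, the mean nuclear share was 1.588% in sham + WT, 2.031% in sham + Lrg1-/-, 1.383% in MCAO/R + WT and 1.885% in MCAO/R + Lrg1-/-, and the mitochondrial share was 4.127%, 4.097%, 4.031% and 4.044% in the 4 groups in the order above.

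Within cell types the nuclear share still differed by genotype in most types. After MCAO/R, the libraries of the genotypes did not overlap in 9 of the 11 types that had at least 2 libraries per group, and all 9 were higher in Lrg1-/-. In sham mice 8 of 11 types did not overlap, again all higher in Lrg1-/-. As ratios of group means, the 9 ran from 1.118 in astrocytes to 2.002 in macrophages. The 8 in sham mice ran from 1.096 in oligodendrocytes to 2.153 in T cells. All types of a comparison come from the same mice and are not separate observations. With 2 or 3 libraries per group, a type can also lack overlap by chance. No such count over all genes is set beside these, so that they have no background. The mitochondrial share went either way, since after MCAO/R it was higher without overlap in 6 types, lower in 1 and overlapping in 4, and in sham mice higher in 5, lower in 2 and overlapping in 4.

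Microglial cells, the resident immune cells, had nuclear shares of 0.58%, 0.55% and 0.57% in sham + WT and 0.74%, 0.60% and 0.63% in sham + Lrg1-/-. After MCAO/R these became 0.73% and 0.62% in WT and 1.04%, 1.06% and 0.99% in Lrg1-/-. The MCAO/R + Lrg1-/- libraries thus stood above all others, and the remaining groups lay near each other. Mitochondrial shares of these cells were 2.03%, 1.87% and 1.89%, then 2.45%, 2.29% and 2.28%, then 2.03% and 2.86%, and 2.09%, 1.98% and 2.11% in the same order. MCAO/R + WT replicate 2 had the highest of these mitochondrial shares, and the ratio of its mitochondrial to nuclear UMIs, 4.64, was also the highest for microglial cells.

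T cells showed the widest gap in sham mice. Their cluster passed 6 of 6 T cell markers and also 5 natural killer cell markers, so that the class may mix both. The nuclear share of this class was 1.03%, 1.09% and 1.05% in sham + WT against 2.20%, 2.30% and 2.32% in sham + Lrg1-/-. It was 1.83%, 1.59% and 1.46% in MCAO/R + Lrg1-/- and 1.14% in the single MCAO/R + WT library with enough T cells. Endothelial cells, which line the vessels, had 1.19%, 1.16% and 1.22% in sham + WT and 1.86%, 1.89% and 2.34% in sham + Lrg1-/-, and after MCAO/R 1.04% and 1.11% in WT against 2.39%, 1.66% and 1.53% in Lrg1-/-. In both cell types every Lrg1-/- library lay above every WT library.

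Choroid plexus epithelial cells and oligodendrocytes, the myelinating cells, stood out by the mitochondrial share and went in opposite directions. In choroid plexus cells it was 7.93%, 10.94% and 10.49% in sham + WT and 10.17% and 8.65% in MCAO/R + WT, against 4.54%, 4.64% and 3.73% in sham + Lrg1-/- and 3.48%, 6.13% and 5.56% in MCAO/R + Lrg1-/-. As a median of single cells rather than a sum, it was 4.74%, 7.54%, 6.77%, 7.01% and 7.58% in the 5 WT libraries against 3.12% to 4.71% in the 6 Lrg1-/- libraries, so that the gap was narrower on that scale. In oligodendrocytes it was 3.91%, 3.76% and 3.60% in sham + WT and 3.51% and 4.03% in MCAO/R + WT, against 5.44%, 5.34% and 5.88% in sham + Lrg1-/- and 5.61%, 6.11% and 5.99% in MCAO/R + Lrg1-/-. The genotypes did not overlap in either type. Only 28 choroid plexus cells came from MCAO/R + WT replicate 2.

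**Figure D2:**
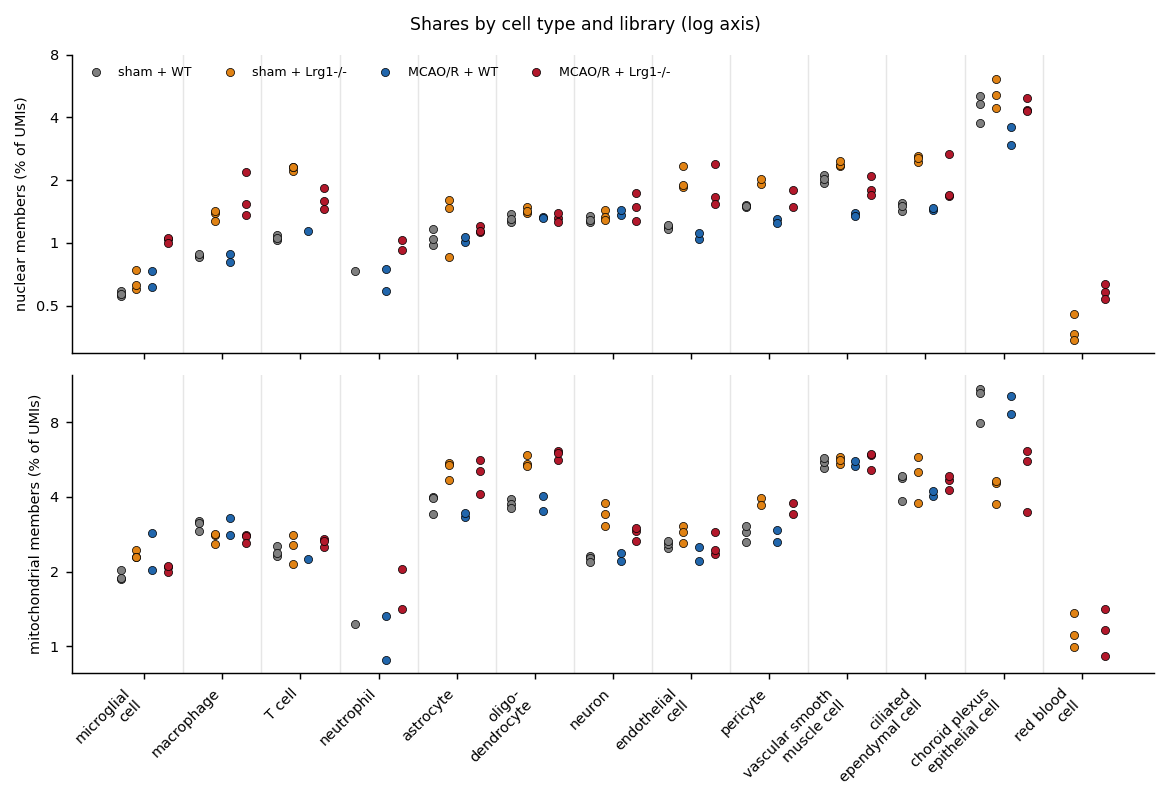
Nuclear and mitochondrial shares of UMIs on log axes, by cell type and group, each point 1 library with at least 20 cells of the type. Choroid plexus cells have the highest nuclear shares (2.96% to 6.12%), and their mitochondrial shares are 7.93% to 10.94% in WT and 3.48% to 6.13% in Lrg1-/-.

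Genes were then tested singly to ask how the genotype was associated with expression after MCAO/R. UMIs were summed per library and cell type and fitted with the quasi-likelihood test of edgeR. Calls needed an adjusted p (Benjamini-Hochberg, over all genes tested in that cell type) below 0.05 and a fold change of more than 0.25 on the natural log scale, in either direction. Levels in CPM are UMIs of a gene relative to the TMM-scaled total of its library and cell type. Each ± after a log2 fold change is an SE worked back from that fold change and the test statistic, not estimated by the fit itself. Cox7b2 (233 UMIs) and Cox8c (4 UMIs) were too rare to be tested anywhere, so that 83 nuclear members entered at least 1 test.

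Where nuclear members were called after MCAO/R, nearly all were higher in Lrg1-/- than in WT. Over 11 cell types, 310 of 894 gene and cell type combinations were called higher (34.7%) and 2 lower, against 8.17% higher and 7.18% lower over all genes. By complex, 136 of 393 combinations were called higher for complex I, 6 of 44 for complex II, 22 of 88 for complex III, 70 of 173 for complex IV and 75 of 187 for complex V. Complex II had the smallest share. The group of 2 mice weighs on these counts, which fell to 201 without MCAO/R + WT replicate 1 and to 45 without replicate 2, where the remaining library is assumed to vary like the other groups.

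Macrophages had the most calls, with 68 of 80 nuclear members higher against 8.82% of all genes and a median log2 fold change of 0.99. Choroid plexus cells had 59 of 83 (background 12.7%, median 0.76), endothelial cells 56 of 83 (background 12.7%, median 0.88), microglial cells 49 of 83 (background 10.2%, median 0.53) and vascular smooth muscle cells 42 of 82 (background 8.09%, median 0.48). The median over all genes tested lay between 0.00 and 0.08 in these 5 types. Without MCAO/R + WT replicate 2, the same counts were 22, 1, 0, 7 and 13 in the order given. The endothelial count was 4 without MCAO/R + WT replicate 1 and 33 without MCAO/R + Lrg1-/- replicate 1, the choroid plexus count 32 without MCAO/R + Lrg1-/- replicate 1, the microglial count 26 without MCAO/R + Lrg1-/- replicate 2, and the vascular smooth muscle count 26 without MCAO/R + WT replicate 1. In cluster 9 of the endothelial cells alone, in a fit chosen after seeing the data, 18 of 83 were higher against 5.34% of all genes of that fit. That cluster held 23.7%, 52.3%, 11.7% and 35.6% of endothelial cells in sham + WT, sham + Lrg1-/-, MCAO/R + WT and MCAO/R + Lrg1-/-.

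Other cell types had fewer calls. Pericytes had 17 of 81 higher against 5.32% of all genes, ependymal cells 10 of 83 against 3.28%, and neurons 1 of 83, Cox8b, against 3.48%, with a median of 0.22 and nuclear shares that overlapped between the genotypes. The pericyte count was 2 and 35 without MCAO/R + Lrg1-/- replicates 2 and 5, 7 and 1 without MCAO/R + WT replicates 1 and 2, and 10 and 7 without sham + WT replicates 2 and 3. The ependymal count was 4, 25 and 6 without MCAO/R + Lrg1-/- replicates 1, 2 and 5, 0 without either MCAO/R + WT library, 4 and 18 without sham + Lrg1-/- replicates 2 and 5, and 6, 2 and 4 without sham + WT replicates 1, 2 and 3. Oligodendrocytes had 8 of 83 higher and 2 lower, against 14.5% and 14.2% of all their genes, and a median of 0.11, so that both shares were below those of all genes. No nuclear member was called lower in another type. That count of 8 was 5 without MCAO/R + Lrg1-/- replicate 2, 5 without MCAO/R + WT replicate 1 and 1 without MCAO/R + WT replicate 2. Their 2 lower members were complex I subunits. Ndufc2 had 263 and 262 CPM in MCAO/R + WT against 166, 190 and 194 in MCAO/R + Lrg1-/- (log2 fold change -0.51 ± 0.10 (SE), edgeR adjusted p = 0.0036), and Ndufv2 had 174 and 172 against 134, 129 and 113 (-0.47 ± 0.11, adjusted p = 0.0063). Neither pair of groups overlapped. In neutrophils 0 of 74 were called by edgeR or by DESeq2, although 33 had an unadjusted p below 0.05 and the median was 0.84. In astrocytes 0 of 79 were called by edgeR, with 8 at an unadjusted p below 0.05 and 2 called higher by DESeq2. The shares of all genes are not set beside these counts, so that they do not tell the members from other genes.

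**Figure D3:**
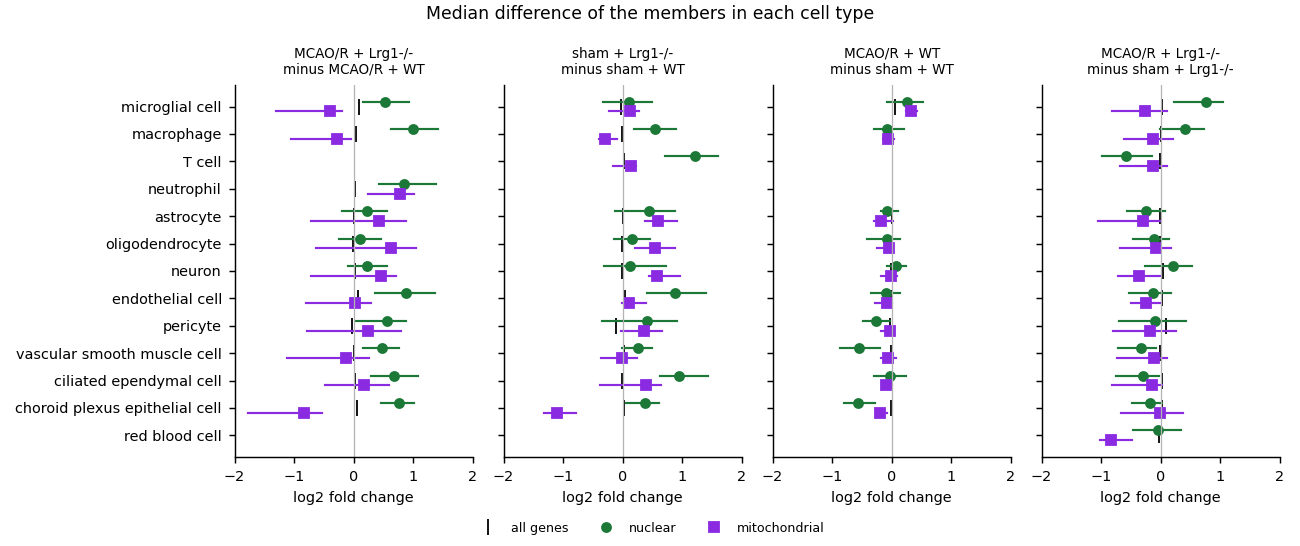
Median log2 fold change of nuclear members (circles), mitochondrial members (squares) and all genes tested (ticks) by cell type, 1 panel per comparison. Lines run from the 10th to the 90th percentile of the members; in the left panel nuclear medians reach 0.99 in macrophages while mitochondrial medians reach -0.83 in choroid plexus cells.

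Central subunits of the complexes were called in a part of the cell types after MCAO/R. Of up to 11 types with this test, Cox4i1 and Atp5b were called higher in 5 each, Atp5a1, Ndufv1 and Uqcrfs1 in 2 each, Ndufs1 in 1, macrophages, and Sdha in 0, and none of the 7 was called lower. Values are given in 1 type for each. Cox4i1, the common isoform of a complex IV subunit, had 389 and 408 CPM in endothelial cells of MCAO/R + WT and 955, 633 and 717 in MCAO/R + Lrg1-/- (log2 fold change 0.95 ± 0.22, edgeR adjusted p = 0.015). Atp5b, the catalytic beta subunit of ATP synthase, had 231 and 189 CPM in macrophages of MCAO/R + WT and 515, 470 and 431 in MCAO/R + Lrg1-/- (1.17 ± 0.17, adjusted p = 0.00059). Atp5a1, its alpha subunit, rose in endothelial cells from 259 and 234 to 375, 365 and 300 CPM (0.49 ± 0.15, adjusted p = 0.037). In macrophages, Ndufv1, which binds NADH in complex I, rose from 38.1 and 32.8 to 72.6, 57.4 and 67.9 CPM (0.86 ± 0.24, adjusted p = 0.023), and Uqcrfs1, the iron-sulfur subunit of complex III, from 53.7 and 62.2 to 106, 85.1 and 81.5 (0.64 ± 0.20, adjusted p = 0.04). Groups did not overlap for any of these. Ndufs1, the largest complex I subunit, was not called in endothelial cells at 30.9 and 33.1 against 42.6, 39.2 and 35.4 CPM (0.29 ± 0.13, adjusted p = 0.11). Sdha, the flavoprotein of complex II, was called in no cell type in any of the 4 comparisons, and in macrophages it had 64.7 and 68.4 CPM against 89.3, 83.5 and 73.7 (0.31 ± 0.20, adjusted p = 0.30).

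Some members were called higher after MCAO/R in many cell types. Atp5g1, which encodes the membrane ring subunit c of ATP synthase, was called in 8 types and Atp5d in 8, and Ndufs6, Ndufa9, Ndufb7, Ndufa13, Cox7b and Uqcrq in 7 each. Among the nuclear members, 79 of 85 were called higher in at least 1 type. The same count was not made over all genes, so that it has no background here. The other 6 members were Cox7b2, Cox8c, Sdha, Sdhd, Cox7c and Ndufa1. Atp5g1 in endothelial cells had 119 and 92.8 CPM in MCAO/R + WT and 477, 310 and 210 in MCAO/R + Lrg1-/- (log2 fold change 1.65 ± 0.33, edgeR adjusted p = 0.0081). In macrophages it had 144 and 69.0 against 532, 341 and 250 (1.80 ± 0.31, adjusted p = 0.0018). It also had 95.9, 103 and 98.1 CPM in endothelial cells of sham + WT against 276, 250 and 419 in sham + Lrg1-/- (1.67 ± 0.28, adjusted p = 0.0045). Every Lrg1-/- library was thus above every WT library for both surgeries in endothelial cells.

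Promoters are shown because many genes of this pathway carry a site for the transcription factor NRF1, a known regulator of mitochondrial genes, and the set was picked for the motif: the 4 shown with it are those called higher most often among the members that hold it in the stretch printed. Atp5g1, Cox7b and Cox6b2, which were called higher more often than any member shown, do not hold it in their windows. Ndufs6 (complex I), Atp5k (ATP synthase), Ndufa11 (complex I), Ndufs5 (complex I) and, as one without the motif, Cox8b (complex IV) were chosen after their values were seen, Ndufs6 and Atp5k being called higher in 12 and 11 combinations of cell type and surgery. Each line gives the 100 bases before the annotated start, 5′ to 3′ on the gene's strand, from RefSeq on GRCm38.p6, with capitals marking GCGCANGCG on either strand. Coordinates are chr13:73328483-73328582 (minus strand) for Ndufs6, chr5:108434400-108434499 (minus) for Atp5k, chr17:56717662-56717761 (plus) for Ndufa11, chr4:123718187-123718286 (minus) for Ndufs5 and chr7:140900447-140900546 (minus) for Cox8b.
Ndufs6: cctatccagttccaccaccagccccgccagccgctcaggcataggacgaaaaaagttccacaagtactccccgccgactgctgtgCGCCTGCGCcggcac
Atp5k: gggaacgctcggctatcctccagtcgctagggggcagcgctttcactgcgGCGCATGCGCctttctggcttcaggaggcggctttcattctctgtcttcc
Ndufa11: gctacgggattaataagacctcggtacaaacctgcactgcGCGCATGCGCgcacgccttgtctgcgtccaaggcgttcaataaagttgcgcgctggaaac
Ndufs5: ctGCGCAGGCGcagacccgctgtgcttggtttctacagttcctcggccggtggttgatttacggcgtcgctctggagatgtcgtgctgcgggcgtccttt
Cox8b: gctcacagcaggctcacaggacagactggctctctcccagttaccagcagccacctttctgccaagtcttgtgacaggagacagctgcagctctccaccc

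The NRF1 letters lay 15 bases before the start in Ndufs6, and in Atp5k and Ndufa11 they matched on both strands over 1 overlapping stretch. Of 85 nuclear members, 69 had a promoter window of 250 bases before to 50 bases after the start, and 20 of these 69 (29.0%) held GCGCANGCG, against 7.03% of 27025 genes. AAGATGGCG, the YY1 motif, stood in 7 (10.1%) against 1.64% of all genes, CCGGAAG, the core of ETS sites, in 17 (24.6%) against 9.93%, and TCAAGGTCA, the ERR-alpha motif, in 2 (2.9%) against 0.466%. Such a match is a description of the letters in the window and says nothing of binding in these cells.

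Ndufs6, an accessory subunit of complex I, had 75.5 and 74.3 CPM in endothelial cells of MCAO/R + WT and 198, 154 and 130 in MCAO/R + Lrg1-/- (log2 fold change 1.10 ± 0.19, edgeR adjusted p = 0.0049). In microglial cells it had 52.2 and 34.3 against 70.0, 89.6 and 82.3 (0.90 ± 0.20, adjusted p = 0.0071). Atp5k in endothelial cells had 56.7 and 59.9 CPM in MCAO/R + WT and 242, 107 and 95.3 in MCAO/R + Lrg1-/- (1.34 ± 0.38, adjusted p = 0.031). All these groups were apart, and the value of 242 came from MCAO/R + Lrg1-/- replicate 1, the library with the highest nuclear share after MCAO/R.

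The same genotype comparison in sham mice gave 257 of 899 nuclear combinations higher and 6 lower, against 6.56% and 6.19% of all genes, over 11 cell types. By complex, 93 of 396 were higher in complex I, 6 of 44 in complex II, 25 of 88 in complex III, 67 of 175 in complex IV and 64 of 187 in complex V. The count of 257 was 146, 115 and 129 without sham + WT replicates 1, 2 and 3, 150 without sham + Lrg1-/- replicate 5, and 160 without MCAO/R + WT replicate 2. In both comparisons most of the members that were called were higher in Lrg1-/-. The comparisons use different mice but share 1 fit per cell type and its estimate of the spread, so that they are not independent.

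T cells led in sham mice, with 70 of 79 nuclear members higher against 8.26% of all genes and a median log2 fold change of 1.22. Endothelial cells had 68 of 83 (background 12.9%, median 0.88) and ciliated ependymal cells, which line the ventricles, 57 of 83 (background 4.88%, median 0.94). Oligodendrocytes had 14 of 83 (background 6.7%, median 0.15), and microglial cells 6 higher and 4 lower of 83, against 11.0% and 12.3% of all their genes. Of the other types with many calls after MCAO/R, macrophages had 13 of 80 higher (background 1.9%, median 0.54), choroid plexus cells 10 of 83 (background 10.9%, median 0.37) and vascular smooth muscle cells 8 of 82 (background 2.98%, median 0.26). Pericytes had 6 higher, a count of 1, 2 and 2 without sham + WT replicates 1, 2 and 3. All 11 types had calls higher, among them Cox8b and Ndufa13 in neurons and Ndufa1 and Atp5g1 in astrocytes. For pericytes, neurons and astrocytes the shares of all genes are not given beside these calls. The macrophage count was 6, 0 and 5 without sham + Lrg1-/- replicates 1, 2 and 5, 0, 0 and 1 without sham + WT replicates 1, 2 and 3, 28 without MCAO/R + Lrg1-/- replicate 1 and 20 without MCAO/R + WT replicate 1. The choroid plexus count was 4 and 6 without sham + Lrg1-/- replicates 1 and 2, 2 and 5 without sham + WT replicates 2 and 3, and 28 without MCAO/R + Lrg1-/- replicate 1. The smooth muscle count was 2, 3 and 4 without sham + Lrg1-/- replicates 1, 2 and 5, 1 and 3 without sham + WT replicates 2 and 3, and 18 and 13 without MCAO/R + Lrg1-/- replicates 1 and 5. The T cell count moved by less than 1.5 times when any library was left out. The endothelial count was 45, 33 and 40 without sham + WT replicates 1, 2 and 3 and 36 without sham + Lrg1-/- replicate 5. The ependymal count was 6, 7 and 1 without sham + WT replicates 1, 2 and 3, 19 and 13 without sham + Lrg1-/- replicates 2 and 5, and 34 and 33 without MCAO/R + WT replicates 1 and 2. The oligodendrocyte count was 4, 7 and 8 without sham + Lrg1-/- replicates 1, 2 and 5, 2 and 4 without sham + WT replicates 2 and 3, and 6 without MCAO/R + WT replicate 1.

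In T cells of sham mice, Uqcr11, a small subunit of complex III, had 66.4, 84.8 and 81.0 CPM in WT and 291, 323 and 306 in Lrg1-/- (log2 fold change 1.99 ± 0.21, edgeR adjusted p = 0.00017). Ndufa11, a membrane subunit of complex I, had 78.4, 68.9 and 84.4 against 251, 236 and 291 CPM (1.76 ± 0.20, adjusted p = 0.00021). Cox4i1 had 370, 419 and 507 against 989, 909 and 1049 CPM (1.19 ± 0.16, adjusted p = 0.00048), and Atp5b 237, 249 and 263 against 517, 499 and 632 (1.14 ± 0.17, adjusted p = 0.00093). None of these groups overlapped. The sham T cells numbered 34 to 60 per WT library and 40 to 200 per Lrg1-/- library.

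In microglial cells of sham mice both shares were below those of all genes. Atp5g2, another gene for subunit c, had 219, 204 and 204 CPM in sham + WT and 125, 102 and 133 in sham + Lrg1-/- (log2 fold change -0.80 ± 0.13, edgeR adjusted p = 0.00097). Atp5c1, the gamma subunit of the rotor, had 117, 116 and 114 against 89.9, 72.9 and 84.8 CPM (-0.48 ± 0.13, adjusted p = 0.017). Both were lower without overlap. The counts of 6 higher and 4 lower are small and moved with 1 library: without sham + WT replicate 2 they were 2 and 2, without sham + WT replicate 3 they were 2 and 2, without sham + Lrg1-/- replicate 1 they were 2 and 2, and without MCAO/R + WT replicate 2 they were 11 and 8. Without MCAO/R + WT replicate 1, 13 were higher, without sham + Lrg1-/- replicate 2, 1 was lower, and without sham + WT replicate 1, 2 were lower.

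Mitochondrial members did not move with the nuclear ones. After MCAO/R, 14 of 141 combinations were higher and 26 lower in Lrg1-/- than in WT, and in sham mice 13 of 143 were higher and 18 lower. As shares, the higher calls were 9.93% and 9.09%, near the 8.17% and 6.56% of all genes, although DESeq2 called 25 and 33 combinations higher, and the lower calls 18.4% and 12.6% against 7.18% and 6.19%. The MCAO/R counts were 9 higher without sham + WT replicate 2, 5 higher without MCAO/R + WT replicate 1, and 6 higher and 16 lower without MCAO/R + WT replicate 2. The sham counts were 8, 5 and 5 higher without sham + WT replicates 1, 2 and 3, and 11 lower without either of sham + WT replicates 2 and 3. Which way they went depended on the cell type and on the gene.

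Choroid plexus cells had all 13 mitochondrial members lower in sham + Lrg1-/- than in sham + WT, against 11.8% of all genes lower, with a median log2 fold change of -1.10. After MCAO/R, 7 of 13 were lower (background 12%, median -0.83). The 13 became 7 without sham + WT replicate 2 and 7 without sham + WT replicate 3, and the 7 became 3 without MCAO/R + WT replicate 1 and 11 without MCAO/R + Lrg1-/- replicate 2. Kept to cells with at most 10% mitochondrial UMIs, 1 of the 13 remained called lower in sham mice, and after MCAO/R too few WT choroid plexus cells were left to test. A limit on mitochondrial UMIs is a limit on these members themselves. In the same cells mt-Co1, the catalytic subunit of complex IV, had 8645, 12523 and 13075 CPM in sham + WT against 6554, 6825 and 6620 in sham + Lrg1-/- (-0.78 ± 0.22, edgeR adjusted p = 0.025), while mt-Nd3 of complex I had 1172, 2003 and 2010 against 661, 804 and 635 (-1.30 ± 0.21, adjusted p = 0.0023). Both were lower in each Lrg1-/- library. Clusters 10 and 11 made up this class, with cluster 10 holding 35.8% of it in sham + WT, 60.9% in sham + Lrg1-/-, 41.3% in MCAO/R + WT and 64.0% in MCAO/R + Lrg1-/-.

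Oligodendrocytes had 9 of 13 mitochondrial members higher and 1 lower after MCAO/R, with a median of 0.63, and 7 of 13 higher in sham mice, against 14.5% and 6.7% of all genes higher in these cells. The 9 became 5 without MCAO/R + WT replicate 1, the 7 became 4 without sham + WT replicate 3, and with at most 10% mitochondrial UMIs the 9 became 2. In their main cluster alone (cluster 3, a choice made after seeing the data) 6 of 13 were called higher against 10.9% of all genes of that fit. mt-Nd1, a membrane subunit of complex I, had 1531, 1626 and 1660 CPM in sham + WT, 3000, 2982 and 3028 in sham + Lrg1-/-, 1489 and 1729 in MCAO/R + WT, and 3710, 3224 and 3212 in MCAO/R + Lrg1-/-. Its log2 fold change by genotype was 0.90 ± 0.12 in sham (edgeR adjusted p = 0.0007) and 1.07 ± 0.14 after MCAO/R (adjusted p = 0.00023). mt-Nd6, the member read from the other strand of the mitochondrial genome, had 25.1 and 23.4 CPM in MCAO/R + WT against 62.1, 53.3 and 65.0 in MCAO/R + Lrg1-/- (1.31 ± 0.15, adjusted p = 0.00012). mt-Cytb of complex III had 3450 and 4227 against 6928, 6410 and 6462 (0.78 ± 0.16, adjusted p = 0.004). The Lrg1-/- libraries were above the WT libraries for all 3 genes. Cluster 3 held 26.9% of oligodendrocytes in sham + WT, 63.9% in sham + Lrg1-/-, 100% in MCAO/R + WT and 99.9% in MCAO/R + Lrg1-/-.

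In microglial cells 6 of 13 mitochondrial members were lower after MCAO/R in Lrg1-/-, against 10.4% of all genes lower, with a median of -0.40, while the nuclear median was 0.53. The count was 3 without MCAO/R + WT replicate 2. mt-Nd5 had 390 and 451 CPM in MCAO/R + WT and 210, 225 and 220 in MCAO/R + Lrg1-/- (log2 fold change -0.94 ± 0.15, edgeR adjusted p = 0.00081), and mt-Nd2 had 1448 and 1514 against 1255, 950 and 808 (-0.56 ± 0.17, adjusted p = 0.03). mt-Co2 of complex IV, with 3110 and 4291 against 2478, 3121 and 2797 CPM, was not called (-0.40 ± 0.16, adjusted p = 0.089), nor were mt-Co3 (-0.18 ± 0.20, adjusted p = 0.55) and mt-Atp6 (-0.31 ± 0.18, adjusted p = 0.23). The called genes were of complex I and, in 1 case, complex V.

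**Figure D4:**
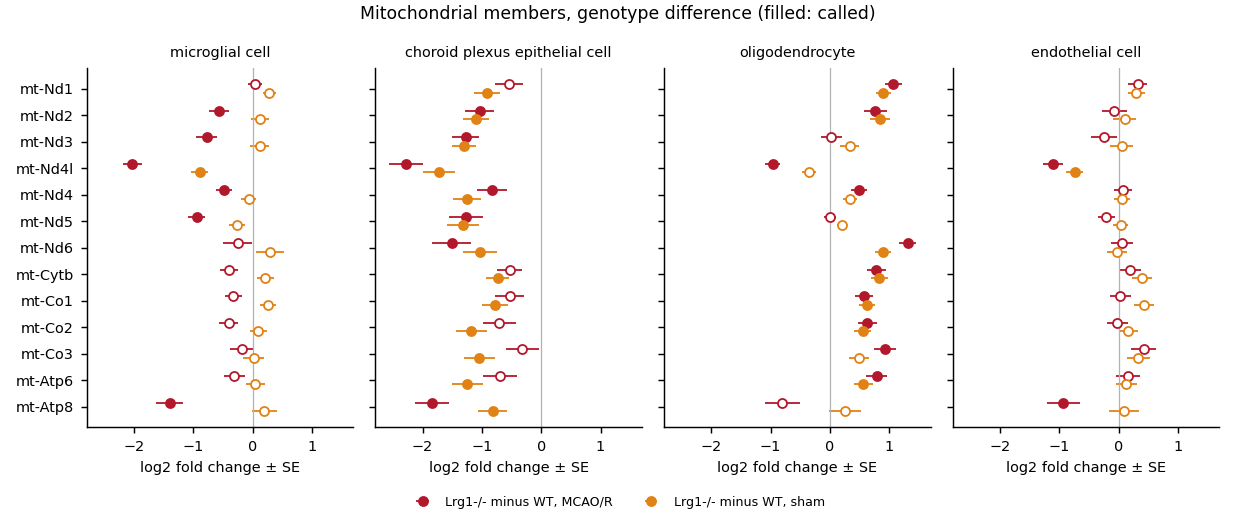
Log2 fold change by genotype (points) with its SE (lines) for the 13 mitochondrial members in 4 cell types, after MCAO/R and in sham mice; filled points were called. mt-Nd4l lies left of 0 in each panel for both surgeries, while mt-Nd1 reaches 1.07 in oligodendrocytes after MCAO/R.

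One mitochondrial member kept its direction over the cell types. mt-Nd4l, a small complex I subunit, was called lower after MCAO/R in 10 of 11 types and was below 0 in all 11, from -2.28 to -0.18, and in sham mice it was called lower in 5 of 11 and was below 0 in all 11, from -1.73 to -0.21. In microglial cells it had 256, 190 and 219 CPM in sham + WT, 125, 128 and 105 in sham + Lrg1-/-, 246 and 276 in MCAO/R + WT, and 71.4, 66.4 and 54.6 in MCAO/R + Lrg1-/- (genotype log2 fold change -0.89 ± 0.14 in sham, edgeR adjusted p = 0.00084, and -2.03 ± 0.16 after MCAO/R, adjusted p = 6.2e-06). It was lower in Lrg1-/- even in oligodendrocytes, where most mitochondrial members were higher, at 292 and 313 CPM in MCAO/R + WT against 165, 171 and 129 in MCAO/R + Lrg1-/- (-0.97 ± 0.13, adjusted p = 0.00032). Its neighbour mt-Nd4 did not follow it there, at 2558 and 2659 against 3848, 3594 and 3507 CPM (0.48 ± 0.13, adjusted p = 0.017). mt-Nd4l and mt-Nd4 overlap by a few bases in the annotation and lie on 1 transcript, so that counts near their border are uncertain.

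mt-Atp8, which overlaps mt-Atp6 in the annotation and is likewise uncertain, separated the surgeries within Lrg1-/- mice. After MCAO/R it was called lower in 5 of 10 cell types by genotype and was below 0 in all 10, from -1.84 to -0.42, whereas in sham mice it was above 0 in 9 of 11 types and called lower in 1. Between MCAO/R + Lrg1-/- and sham + Lrg1-/- it was below 0 in all 12 types, from -1.79 to -1.0, and called in 5. Between MCAO/R + WT and sham + WT it was called in 0 of 10 by edgeR or DESeq2, with 0 at an unadjusted p below 0.05, and was below 0 in 6. Microglial cells had 30.7, 23.6 and 30.3 CPM in sham + WT, 29.9, 33.2 and 34.5 in sham + Lrg1-/-, 36.0 and 39.6 in MCAO/R + WT, and 20.8, 13.7 and 10.3 in MCAO/R + Lrg1-/-. The last group lay below the others.

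Differences with surgery varied by cell type. In WT mice, MCAO/R against sham gave 14 of 820 nuclear combinations higher and 67 lower over 10 cell types, against 4.44% and 4.11% of all genes. Mitochondrial members gave 1 of 130 higher, mt-Nd1 in microglial cells, and 0 lower by edgeR or DESeq2, with 1 lower at an unadjusted p below 0.05. Of the 67 lower, 58 were in vascular smooth muscle cells, out of 82 tested there, against 6.17% of all genes and with a median log2 fold change of -0.56. The 14 became 8, 5 and 5 without sham + WT replicates 1, 2 and 3, 3 without MCAO/R + WT replicate 1 and 34 without replicate 2. The 67 became 40 without MCAO/R + WT replicate 1 and 26 without replicate 2, and the 58 became 34 and 24.

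Vascular smooth muscle cells, the contractile cells of the artery wall, thus had lower nuclear members after MCAO/R in WT mice. Ndufa13, a complex I subunit, had 474, 452 and 530 CPM in sham + WT and 210 and 213 in MCAO/R + WT (log2 fold change -1.2 ± 0.12, edgeR adjusted p = 4.3e-05). Atp5o, in the stalk of ATP synthase, had 220, 200 and 250 against 113 and 106 (-1.03 ± 0.14, adjusted p = 0.00039), and Cox7a2, the widely used isoform of a complex IV subunit, 417, 369 and 415 against 252 and 238 (-0.71 ± 0.11, adjusted p = 0.001). The groups were far apart for each.

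Microglial cells had 9 of 83 nuclear members higher in WT mice after MCAO/R, against 11.6% of all genes, with a median of 0.26. The count was 0 without MCAO/R + WT replicate 1, 30 without replicate 2, and 4, 2 and 2 without sham + WT replicates 1, 2 and 3. Ndufa12 of complex I had 37.9, 42.3 and 43.1 CPM in sham + WT and 91.2 and 52.7 in MCAO/R + WT (log2 fold change 0.81 ± 0.23, edgeR adjusted p = 0.024). The microglial MCAO/R + WT mice therefore differed between themselves by more than the sham mice did. In choroid plexus cells the median was -0.56, yet only Ndufa8 was called lower by edgeR, at 328, 234 and 271 against 163 and 124 CPM (-0.94 ± 0.21, adjusted p = 0.049).

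In Lrg1-/- mice, MCAO/R against sham gave 79 of 974 nuclear combinations higher and 55 lower over 12 cell types, against 4.83% and 3.95% of all genes, and 13 of 155 mitochondrial combinations lower. The 13 became 6, 6 and 7 without sham + WT replicates 1, 2 and 3, 6 and 5 without sham + Lrg1-/- replicates 1 and 2, and 33, 5 and 7 without MCAO/R + Lrg1-/- replicates 1, 2 and 5. Microglial cells held 64 of the 79, out of 83 tested, against 20.8% of all genes and with a median of 0.76. That count lay between 55 and 68 whichever library was left out. The 55 lower became 36 without sham + WT replicate 2, 35, 22 and 26 without sham + Lrg1-/- replicates 1, 2 and 5, and 136, 21 and 18 without MCAO/R + Lrg1-/- replicates 1, 2 and 5.

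The microglial rise within Lrg1-/- mice went along with a change in the clusters that made up the class. Cluster 5, which held 30.5% of microglial cells in sham + Lrg1-/- and 37.3% in MCAO/R + Lrg1-/-, gave 7 of 83 nuclear members higher when tested alone, a share near the 7.97% of all genes of that fit, with a median of 0.07, in a fit chosen after seeing the data. Between the genotypes after MCAO/R the same cluster gave 45 of 83 higher, against 12.1% of all genes of that fit, and the whole class gave 49. Cox5a, a matrix-side subunit of complex IV, had 96.9, 72.0 and 78.4 CPM in sham + Lrg1-/- and 178, 253 and 212 in MCAO/R + Lrg1-/- over the whole class (log2 fold change 1.38 ± 0.18, edgeR adjusted p = 0.00013). Atp5a1 had 201, 177 and 190 against 246, 337 and 314 (0.66 ± 0.13, adjusted p = 0.0015), and Uqcrfs1 40.7, 30.4 and 34.9 against 55.6, 66.0 and 57.5 (0.76 ± 0.13, adjusted p = 0.00076). These groups did not overlap.

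Of the 55 nuclear combinations lower after MCAO/R in Lrg1-/- mice, vascular smooth muscle cells held 29 of 82 tested (background 5.53%, median -0.33), T cells 14 of 79 (background 0.922%, median -0.59) and oligodendrocytes 10 of 83 (background 8.27%), with Cox7a2l in endothelial cells and Cox7a1 in ependymal cells as the other 2. The oligodendrocyte count was 20 and 6 without MCAO/R + Lrg1-/- replicates 1 and 5 and 4 without sham + Lrg1-/- replicate 1. The smooth muscle count was 14 and 15 without sham + Lrg1-/- replicates 2 and 5 and 13 and 11 without MCAO/R + Lrg1-/- replicates 2 and 5. The T cell count was 0 without any one of sham + Lrg1-/- replicates 2 and 5 and MCAO/R + Lrg1-/- replicates 2 and 5, 22 without MCAO/R + Lrg1-/- replicate 1, and 9, 7 and 9 without sham + WT replicates 1, 2 and 3. Ndufa13 in vascular smooth muscle cells had 530, 557 and 565 CPM in sham + Lrg1-/- and 351, 306 and 278 in MCAO/R + Lrg1-/- (log2 fold change -0.83 ± 0.10, edgeR adjusted p = 0.00041). Ndufa3 of complex I in T cells had 157, 207 and 237 against 101, 87.5 and 92.7 (-1.09 ± 0.21, adjusted p = 0.024). Both were lower in each library after MCAO/R.

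Whether the genotype difference itself differed between the surgeries was tested as an interaction. Of 950 combinations 15 were called, a share near the 1.33% of all genes, 12 of them nuclear with a positive value (the genotype log2 fold change after MCAO/R minus that in sham) and 3 mitochondrial with a negative one. Microglial cells held 14 of the 15, which is 14 of their 96 members tested (14.6%), against 7.78% of all their genes. Ndufa9 of complex I had the largest nuclear value. It had 43.5, 43.0 and 43.4 CPM in sham + WT, 42.3, 31.7 and 41.7 in sham + Lrg1-/-, 39.3 and 28.4 in MCAO/R + WT, and 63.3, 72.7 and 72.9 in MCAO/R + Lrg1-/-, so that only the last group stood apart (interaction log2 1.21 ± 0.22, edgeR adjusted p = 0.0097). mt-Atp8 had the lowest value, -1.60 ± 0.30 (adjusted p = 0.0115). The single call outside microglial cells was Atp5o in vascular smooth muscle cells, at 113 and 106 CPM in MCAO/R + WT against 192 to 250 in the other 9 libraries (0.98 ± 0.18, adjusted p = 0.03).

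The count of 15 was unstable. It was 46 without MCAO/R + WT replicate 1 and 31 without MCAO/R + Lrg1-/- replicate 1, and its lowest value with 1 library left out was 5. DESeq2 gave 30, edgeR with no filter on low counts 30, and the fit with the replicate number as a block 3. The nuclear part in microglial cells, 11 genes, was 19, 3 and 7 without MCAO/R + Lrg1-/- replicates 1, 2 and 5, 39 and 3 without MCAO/R + WT replicates 1 and 2, 6, 4 and 4 without sham + Lrg1-/- replicates 1, 2 and 5, and 3 without any one sham + WT library. In the other 8 cell types with this test 0 members were called by edgeR. In macrophages 20 of 80 nuclear members had an unadjusted p below 0.05, a count without the share of all genes beside it. DESeq2 called 1 member there and 1 mitochondrial member in oligodendrocytes. The genotype differences of these 8 types in sham and after MCAO/R were thus not shown to differ by edgeR.

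Isoform genes with restricted expression marked cell types, and some of them differed by genotype. Pericytes, the mural cells of capillaries, are known for Ndufa4l2 and Cox4i2, isoforms of Ndufa4 and Cox4i1 that are induced by low oxygen. In pericytes Ndufa4l2 had 1111, 1153 and 1074 CPM in sham + WT against 577 and 440 in sham + Lrg1-/- (log2 fold change -1.13 ± 0.22, edgeR adjusted p = 0.024), and Cox4i2 620, 679 and 567 against 357 and 183 (-1.2 ± 0.25, adjusted p = 0.032). Ndufa4 rose in the same cells, from 62.0, 55.2 and 51.5 to 254 and 501 CPM (2.74 ± 0.28, adjusted p = 0.00043), and after MCAO/R from 57.9 and 40.9 to 276 and 236 (2.39 ± 0.28, adjusted p = 0.0015). After MCAO/R neither Ndufa4l2 (762 and 1035 against 797 and 702 CPM, -0.26 ± 0.22, adjusted p = 0.50) nor Cox4i2 (450 and 444 against 314 and 319, -0.50 ± 0.24, adjusted p = 0.21) was called. In other cells of the sham comparison both were higher in Lrg1-/- at low levels. Ndufa4l2 had 10.5, 6.2 and 6.8 against 29.7, 32.0 and 63.6 CPM in endothelial cells (2.41 ± 0.44, adjusted p = 0.0057) and 2.5, 1.0 and 1.8 against 11.6, 15 and 27.1 in choroid plexus cells (adjusted p = 0.012), and Cox4i2 had 1.0, 1.0 and 1.2 against 6.8, 8.6 and 19.0 in the latter (adjusted p = 0.0052). Lrg1-/- pericytes numbered 25 to 154 per library in those with at least 20, which were 2 of 3 in each Lrg1-/- group. The remaining mouse of each of these groups had fewer and is not in the pericyte values.

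Cox6a2, the isoform of a complex IV subunit known from heart and skeletal muscle, was called with surgery in cells where its level was low. In microglial cells it had 3.8, 3.9 and 3.6 CPM in sham + WT, 2.1, 4.3 and 2.6 in sham + Lrg1-/-, 10.8 and 6.3 in MCAO/R + WT, and 13.1, 21.6 and 20.9 in MCAO/R + Lrg1-/-. Both rises with surgery were called (log2 fold change 1.19 ± 0.28 in WT, edgeR adjusted p = 0.0084, and 2.65 ± 0.32 in Lrg1-/-, adjusted p = 9.2e-05). In oligodendrocytes it had 0.3, 0.2 and 0.3 CPM in sham + WT and 12 and 9.5 in MCAO/R + WT, and 0.5, 0 and 0 in sham + Lrg1-/- against 4.4, 4.1 and 9.9 in MCAO/R + Lrg1-/-. The sham and MCAO/R libraries did not overlap in either genotype.

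Cox8b, the muscle-type partner of Cox8a, was abundant in choroid plexus cells, at 116, 145 and 233 CPM in sham + WT, 127, 128 and 119 in sham + Lrg1-/-, 93.5 and 33.5 in MCAO/R + WT, and 144, 116 and 64.7 in MCAO/R + Lrg1-/-. Elsewhere it was near 0 in WT and low in Lrg1-/-. In endothelial cells it had 0.4, 0.7 and 0.6 CPM in sham + WT and 0.1 and 0.2 in MCAO/R + WT, against 7.6, 9.4 and 15.5 in sham + Lrg1-/- and 17.9, 1.9 and 2.1 in MCAO/R + Lrg1-/-. It was called higher with genotype there for both surgeries (edgeR adjusted p = 0.0068 in sham and 0.0084 after MCAO/R). The ratio of Cox8b to Ttr, the transthyretin transcript that defines choroid plexus epithelium, was set beside it. Per 10000 UMIs of both genes, Cox8b had 6.18 (exact 95% interval 6.01 to 6.37) in choroid plexus cells of sham + Lrg1-/- and 5.5 (5.33 to 5.68) in those of MCAO/R + Lrg1-/-. In 23 combinations of the other 12 cell types and the Lrg1-/- groups it had 3.0 to 13.2, and the interval overlapped that of choroid plexus cells in 19 of 23. Many of these intervals rest on few Cox8b UMIs and are wide, so that an overlap says little. Endothelial cells had 6.03 (5.47 to 6.62) in sham + Lrg1-/-, which overlapped, and 6.67 (5.87 to 7.54) in MCAO/R + Lrg1-/-, which did not. In WT the endothelial value was 13.2 (9.65 to 17.7) in sham, against 7.17 (6.74 to 7.62) in choroid plexus cells. After MCAO/R it was 7.39 (3.19 to 14.5) in WT, against 3.85 (3.28 to 4.49). These intervals cover counting error only. The isoform Cox8a had 352 and 351 CPM in endothelial cells of MCAO/R + WT and 904, 558 and 503 in MCAO/R + Lrg1-/- (0.90 ± 0.28, adjusted p = 0.04).

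**Figure D5:**
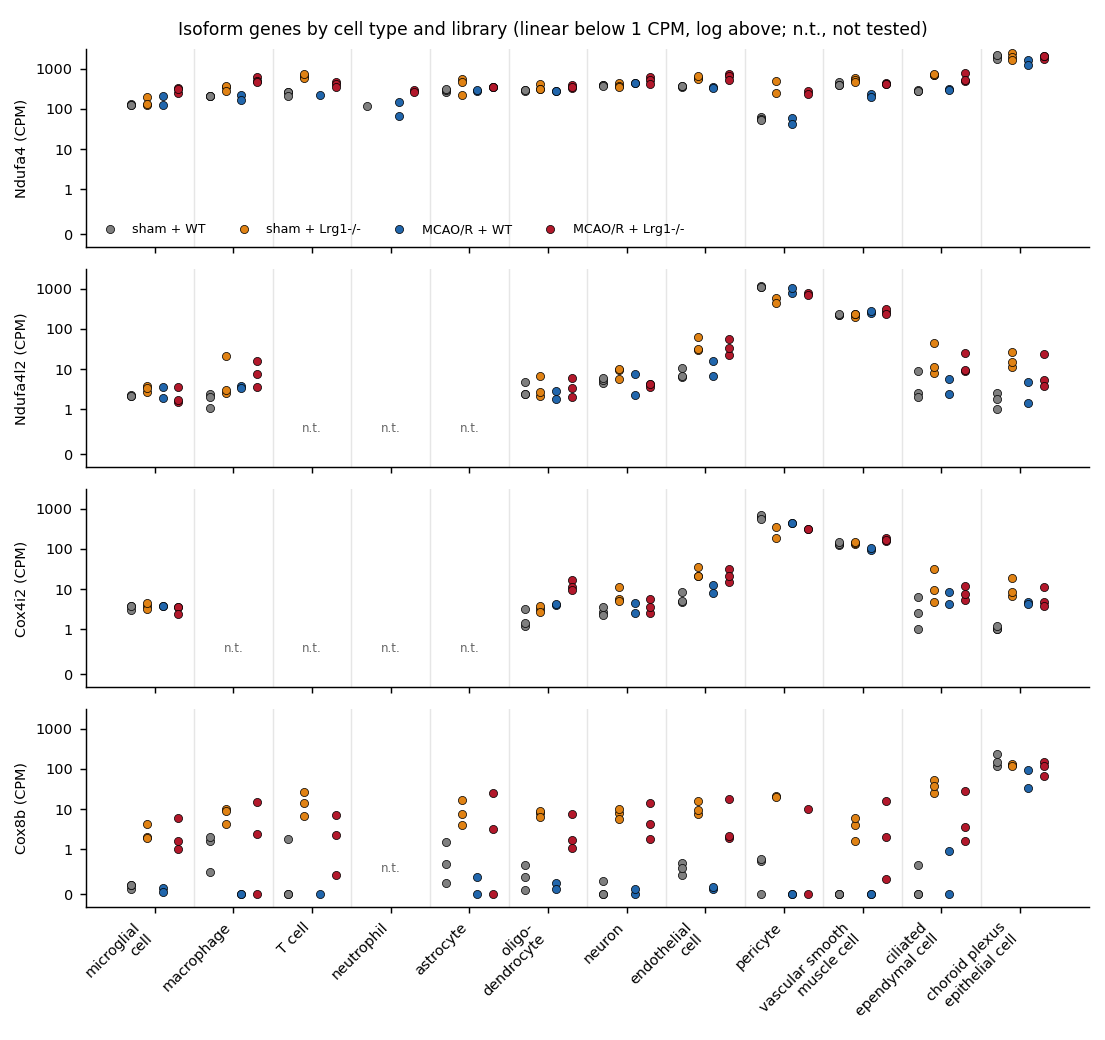
Levels of Ndufa4, Ndufa4l2, Cox4i2 and Cox8b in CPM by cell type, each point 1 library, on an axis that is linear below 1 and logarithmic above. Cox8b lies at 33.5 to 233 CPM in choroid plexus cells, and in endothelial cells at 0.1 to 0.7 in WT and 1.9 to 17.9 in Lrg1-/-.

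Several other measures moved with the genotype in the same cells, and their part in the results was not tested. Ttr itself had 116 to 507 CPM in microglial cells of WT libraries and 3019 to 7183 in those of Lrg1-/- libraries, and in T cells 212 to 637 against 3791 to 28575. Of the choroid plexus marker list, 74 of 99 combinations were called higher by genotype after MCAO/R and 84 of 106 in sham mice, and of the red blood cell list all 55 of 55 in each. Haemoglobin transcripts took 0.90% to 3.11% of microglial UMIs in Lrg1-/- libraries and at most 0.00227% in WT libraries. Cytosolic ribosomal protein transcripts took 4.87% to 6.24% of all UMIs in WT and 7.99% to 11.20% in Lrg1-/-. UMIs from genes that span over 50 kb took 34.07% to 36.08% of endothelial UMIs in WT and 17.61% to 27.16% in Lrg1-/-. Of the nuclear members, 2 span over 50 kb and 29 span under 5 kb. The early response genes that dissociation induces took 2.52% to 3.03% of microglial UMIs in WT and 0.95% to 1.73% in Lrg1-/-.

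Genes around the pathway were counted in the same fits. After MCAO/R in Lrg1-/- against WT, mitochondrial ribosomal proteins, which translate the mitochondrial members, had 206 of 804 combinations higher and 7 lower, and assembly factors had 47 of 452 higher and 9 lower. Enzymes of the tricarboxylic acid cycle, which supply the electrons, had 17 of 138 higher and 2 lower, and the electron carriers, cytochrome c and the makers of coenzyme Q, 16 of 121 higher and 3 lower. Glycolysis had 61 of 183 higher and 7 lower. Cytosolic ribosomal proteins had 432 of 914 higher and 5 lower. Regulators and replication factors of mitochondrial DNA had 6 of 192 higher and 20 lower. These counts are to be read against the 8.17% of all genes called higher and 7.18% called lower in this comparison, and those of the assembly factors, the tricarboxylic acid cycle and the electron carriers lay nearer to it than those of the ribosomal proteins and glycolysis.

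The same lists in sham mice gave 76 of 852 higher and 24 lower for mitochondrial ribosomal proteins, 21 of 480 and 11 for assembly factors, 11 of 143 and 4 for the tricarboxylic acid cycle, 6 of 126 and 7 for the electron carriers, 27 of 186 and 4 for glycolysis, 361 of 916 and 66 for cytosolic ribosomal proteins and 7 of 202 and 12 for regulators, against 6.56% higher and 6.19% lower over all genes. With surgery in WT mice, where 67 nuclear combinations were lower, cytosolic ribosomal proteins had 32 of 833 higher, and mitochondrial ribosomal proteins 21 of 778 higher and 23 lower, all below the shares of all genes in that comparison, 4.44% higher and 4.11% lower. With surgery in Lrg1-/- mice, mitochondrial ribosomal proteins had 99 of 899 higher and 3 lower, the tricarboxylic acid cycle 17 of 149 higher and 1 lower, and cytosolic ribosomal proteins 151 of 997 higher and 8 lower, against 4.83% and 3.95% of all genes.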

How the data were processed

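Single-cell suspensions of the right brain of 11 mice were sequenced from Chromium 3′ libraries. The deposited matrices hold UMI counts per gene and cell barcode, which the authors made with Cell Ranger on mm10 (the file headers give version 7.0.1, a later one than the methods name). No test was made on other units. Kept barcodes had 500 or more genes, 1000 or more UMIs and a mitochondrial share of no more than 25%, 6% per library with the highest simulated-doublet score were removed, and cells were clustered on 2000 variable genes and 15 principal components with 3 neighbours per library and Leiden resolution 1 (igraph 0.11.9, leidenalg 0.10.2, scikit-learn 1.9.0). The study used a resolution of 0.3, and the cell type names rebuilt here from markers may differ from its names. For each cell type, UMIs were added up within libraries that held at least 20 of its cells and tested in 1 fit over all 4 groups, with at least 2 libraries per compared group, by edgeR 4.0.16 (TMM, filterByExpr, quasi-likelihood test, R 4.3.3). Alternatives were DESeq2 1.42.0, no filter on low counts, other limits on mitochondrial UMIs, haemoglobin transcripts removed, cells with at least 3000 UMIs, leaving out each library, and the replicate number as a block. The fits were tested on simulated data, where most of the changes put in were not called. A gene not called here may therefore still differ.

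The members and gene lists were chosen with earlier results of these data known. Named genes are all mitochondrial members, up to 3 nuclear members per comparison, cell type and direction with the largest change among those called without overlap, the isoform pairs Cox4i1/Cox4i2, Ndufa4/Ndufa4l2, Cox6a1/Cox6a2, Cox6b1/Cox6b2, Cox7a1/Cox7a2 and Cox8a/Cox8b, and the core subunits Ndufs1, Ndufv1, Sdha, Uqcrfs1, Cox4i1, Atp5a1 and Atp5b. Others were named after their values were seen, among them Ndufs6, Atp5k, Ndufa11 and Ndufs5. Gene spans come from GENCODE M21 on GRCm38. Each library is 1 mouse.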

Additional observations from a re-analysis of the deposited data

Results flagged for a closer look

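The genotype difference itself differed between MCAO/R and sham surgery in 15 combinations of member and cell type, by the interaction test of edgeR with adjusted p-values over all genes of the cell type. They are 15 of 950 tested, a share near the 1.33% of all genes called in this test. The count depends on single libraries, as given above. Values are the genotype log2 fold change after MCAO/R minus that in sham mice.

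In microglial cells the value was positive for the complex I members Ndufa9 at 1.214, Ndufb5 at 0.8326, Ndufa10 at 0.8006 and Ndufc2 at 0.7728, and for Sdhb, the iron-sulfur subunit of complex II, at 0.8745. It was also positive for the core proteins of complex III, Uqcrc1 at 0.7961 and Uqcrc2 at 0.7466. Of ATP synthase, Atp5c1 stood at 0.9778, Atp5o at 0.9603, Atp5g2 at 0.934 and Atp5f1 at 0.7737. Atp5c1 and Atp5g2 were lower in Lrg1-/- in sham mice, and the other 9 were not called there. The mitochondrial members mt-Atp8 at -1.599, mt-Nd4l at -1.136 and mt-Nd3 at -0.8925 had negative values. Adjusted p-values of these microglial members lay between 0.00972 for Ndufa9 and 0.0416 for Uqcrc1.

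In vascular smooth muscle cells Atp5o stood at 0.9823, with an adjusted p of 0.0299 in the edgeR interaction test.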

How the results depend on the processing

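Of the main results recomputed under each alternative, 311 values stayed within their bounds, 19 shares or medians moved, 26 counts rose and 60 fell. The bound was 1.5 times for counts and the SD between libraries for shares and medians. Only the microglial medians had a direction that could reverse, and none did. Leaving a library out cannot move a share past that bound, so that those values could not count as moved. Counts below are of combinations of gene and cell type. For each change the cause was not tested. With DESeq2, mitochondrial combinations called higher with genotype were 25 after MCAO/R and 33 in sham, those changed with surgery in Lrg1-/- were 1 higher and 28 lower, and 30 had an interaction. With no filter on low counts, nuclear combinations lower with genotype were 7 after MCAO/R and 15 in sham, mitochondrial ones with surgery in Lrg1-/- were 1 higher and 20 lower, and the interaction count was 30. At most 10% mitochondrial UMIs gave 1 nuclear combination lower and 3 mitochondrial higher after MCAO/R, and 8 mitochondrial lower in sham. Without haemoglobin transcripts 5 nuclear combinations were lower after MCAO/R, and with cells of at least 3000 UMIs 6 mitochondrial ones were higher.

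Leaving out 1 library at a time gave, by genotype after MCAO/R, 45 to 346 nuclear combinations higher, 2 to 7 lower, 5 to 14 mitochondrial higher and 16 to 27 lower. In sham the ranges were 115 to 320, 1 to 11, 5 to 16 and 11 to 20. With surgery in WT they were 3 to 34, 26 to 80, 1 to 3 and 0, and in Lrg1-/- 60 to 86, 18 to 136, 0 to 1 and 5 to 33. The interaction count ranged from 5 to 46. The microglial medians ranged from 0.346 to 0.772 (nuclear) and from -0.621 to -0.326 (mitochondrial).

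The share of nuclear members in percent became 1.101 in sham + WT and 1.058 in MCAO/R + WT over UMIs outside mitochondrial and haemoglobin transcripts, and with equal weight of cell types 1.588 in sham + WT, 2.031 in sham + Lrg1-/- and 1.383 in MCAO/R + WT. The mitochondrial share became 2.639 in sham + WT, 3.214 in sham + Lrg1-/- and 2.914 in MCAO/R + Lrg1-/- with the 10% limit, 2.947 in sham + WT without a limit, 3.035 in MCAO/R + Lrg1-/- with at least 3000 UMIs, 3.125, 4.555 and 4.093 in sham + WT, sham + Lrg1-/- and MCAO/R + Lrg1-/- as a mean of single cells, and 4.127, 4.097, 4.031 and 4.044 in the 4 groups with equal weights. Leaving out a library gave nuclear shares of 1.061 to 1.084, 2.489 to 2.922, 1.007 to 1.046 and 1.609 to 2.316, and mitochondrial shares of 2.824 to 2.898, 3.427 to 3.766, 2.552 to 3.239 and 3.185 to 3.391.

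With the replicate number as a block, nuclear combinations higher with genotype numbered 248 after MCAO/R and 117 in sham, with 3 lower in sham. Mitochondrial ones numbered 5 higher after MCAO/R, and 2 higher and 11 lower in sham. With surgery in WT 3 nuclear combinations were higher and 39 lower, and 3 had an interaction. Same-numbered libraries correlated with medians of -0.0946 to 0.05 over cell types and comparisons. Values were centred within groups of 2 or 3 libraries, and in a group of 2 each correlation recurs with the opposite sign. Neither such medians nor the counts that follow can therefore tell whether equal numbers mark pairs. With surgery in WT, 8 of 20 same-numbered pairs were above 0.1, against 2 of 40 others. With surgery in Lrg1-/- they were 5 of 34 against 14 of 69. By genotype they were 3 of 20 against 17 of 42 after MCAO/R and 5 of 22 against 17 of 74 in sham. The block moved no other main count by over 1.5 times. Each comparison that uses MCAO/R + WT rests on 2 mice in that group, and for choroid plexus cells its replicate 2 gave 28 cells.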
